A study of Mus musculus with 21 samples.

Results

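Resting eosinophils were compared with bone marrow eosinophils in mouse, 3 libraries of each, which makes 6 of the 21 libraries of the series. Both groups are labelled wild type and untreated. The bone marrow group was deposited beside granulocyte-monocyte progenitors (GMPs), the marrow cells that give rise to granulocytes and monocytes, and the resting group beside T2 eosinophils, given cytokines of type 2 immunity. Strain, age, sort and tissue of the resting cells are not given in the sources used here: every sample carries 1 culture protocol, in which marrow cells grew in SCF and FLT3L (100 ng/mL each, 4 days) and then IL-5 (10 ng/mL) until RNA was taken on day 7. Nothing says that replicates came from separate animals. The comparison asks how the eosinophils of 1 data set differ from those of the other. Group, table, counting method and cell preparation change together between the tables and cannot be told apart, so large differences are reported, with no p-value.

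Eosinophils are granulocytes that form in the bone marrow under IL-5 and then circulate and settle in tissues. Their precursors divide and make large amounts of granule proteins, chiefly major basic protein, eosinophil peroxidase and the eosinophil-associated ribonucleases, which the mature cell stores ready-made. Mature cells no longer divide and carry Siglec-F, the eotaxin receptor CCR3 and the IL-5 receptor on their surface. Neutrophils, which share the marrow with them, first fill primary granules with myeloperoxidase and serine proteases and later secondary granules with lactoferrin and antimicrobial peptides.

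The tables shared 15355 genes, of which 11036 had at least 1 CPM (counts of a gene scaled to 1000000 counts of the shared genes, with TMM factors, which even out library composition) in all 3 libraries of at least 1 group. A difference is called large where the lowest library of the higher group lay at least 8-fold above the highest library of the lower group, with counts under 3 set to 3. The log2 difference is resting minus bone marrow, so a negative value is lower in resting cells. By this rule 727 genes (6.59% of those counted) were higher in resting eosinophils and 735 (6.66%) were lower. Scaled on housekeeping genes instead, 1486 were higher and 417 lower. Groups that merely did not overlap say little here, since 40.3% of counted genes lay wholly higher and 39.0% wholly lower in resting cells. The 4 classes of genes followed were 63 granule genes, 104 surface genes, 89 proliferation genes and 172 markers of other cells.

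The resting libraries were close to each other (Spearman's rho across genes 0.997 to 0.998) and the bone marrow libraries less so (0.87 to 0.971), and between the groups rho was 0.473 to 0.563. Total counts were 25870192 to 28523399 in bone marrow and 16073573 to 18093548 in resting libraries. Bone marrow replicate 3 stood apart: S100a8, a neutrophil gene, took 5.233% of its counts, whereas Mpo led in replicates 1 and 2. Of 25 housekeeping genes 1 passed the size rule, and the median of their log2 differences was -0.92, against a median of -0.06 over all counted genes. By the log2 difference alone, 66.04% of all counted genes lay past 2-fold in either direction. Of the housekeeping genes 14 (56%) did, and 3 lay past 8-fold. The difference also moved with transcript length: with counted genes sorted by transcript length into 4 sets of 2757 to 2761, its median was -1.34 in the shortest set, -0.35 and 0.30 in the next and 1.42 in the longest. Where removing a trend on length and GC content ends or makes the call of a gene named here, or turns its direction, the value without the trend is given beside it.

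Granule genes were lower in resting eosinophils more often than genes at large. Of 57 counted, 29 were lower (50.9%) and 3 higher (5.26%) by the size rule, against 6.66% and 6.59% of all counted genes. The median log2 difference of the 57 was -3.55, with a range from -15.46 to 4.95. Granule genes took 13.1% to 13.8% of counts in the bone marrow libraries and 1.96% to 2.01% in the resting libraries. The lower genes were 4 of 8 counted eosinophil granule proteins, 11 of 11 primary granule genes, 11 of 17 genes of the neutrophil's later granules and 3 of 21 genes of the granule matrix, lysosomes and secretion. With the length and GC trend removed, the median of the eosinophil granule proteins went from -3.77 to -1.10 and that of the primary granule genes from -12.72 to -10.97. Markers of neutrophils outside the granule lists were lower with them, at 1.15% to 9.50% of counts in bone marrow and 0.205% to 0.231% in resting libraries, and their part in the granule differences was not tested. In bulk libraries, fewer cells of a type and less RNA per cell cannot be told apart. In the plot of granule and surface genes by library, the Mpo, Elane and Camp points of the groups lie furthest apart.

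Of the 12 genes listed as eosinophil granule proteins, 8 were counted, 4 were lower in resting cells and none was higher. Prg2, the gene of major basic protein (chromosome 2, 84980461 to 84983632, GRCm38), had 10407, 10420 and 20959 CPM in bone marrow replicates 1 to 3 and 682, 645 and 680 CPM in the resting replicates. Epx, the gene of eosinophil peroxidase, had 4438, 2692 and 1995 CPM in bone marrow and 150, 147 and 128 CPM in resting libraries. Prg3, which encodes a homologue of major basic protein beside Prg2, had 675, 625 and 1190 CPM in bone marrow and 27.4, 25.7 and 25.1 CPM in resting libraries. The nearest libraries of the groups lay 15.3-fold apart for Prg2, 13.3-fold for Epx and 22.8-fold for Prg3, and in each case all 3 bone marrow libraries were the higher ones. The log2 differences were -4.38, -4.42 and -4.99. With the length and GC trend removed they were -2.01, -4.31 and -2.75, so that Epx alone of these 3 stayed past 8-fold; the Prg2 transcript is 838 bases long and that of Epx 2689. Scaling on housekeeping genes left all 3 lower but took Prg2 (-3.40) and Epx (-3.58) out of the rule.

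The eosinophil-associated ribonucleases are small secreted RNases of the granule. Ear1 had 473, 1142 and 2343 CPM in bone marrow and 423, 409 and 461 in resting libraries, which gives a log2 difference of -1.61. Ear2 had 379, 805 and 1644 CPM against 170, 169 and 199 (-2.39), and Ear6 had 314, 565 and 1072 against 516, 504 and 585, so that the groups overlapped (-0.28). Without the trend the 3 values turned positive, to 1.31, 0.51 and 2.19, and no direction is given for them. These genes are near-identical copies of each other, so their reads may have been split differently by the counting behind the tables. Ear10, of the same family, had 2.06, 5.37 and 10.8 CPM in bone marrow and no count in any resting library, at least 10.6-fold lower against a floor of 3 counts per library, and outside the rule with the trend removed.

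In rank within the library, where 100 is the most abundant gene, Prg2 was at 99.96 to 99.98 in bone marrow and 98.67 to 98.7 in resting cells, a scale that can show little change at its top. Epx went from 99.67 to 99.95 down to 87.95 to 90.03. Prg3 went from 98.84 to 99.28 down to 62.19 to 63.76.

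All 11 counted genes of the primary granule were lower in resting cells, with a median log2 difference of -12.72. Mpo, the gene of myeloperoxidase, had 39955, 27580 and 16976 CPM in bone marrow and 1.19, 0.553 and 1.43 CPM in resting libraries, which places the nearest libraries 11866-fold apart. Elane, the gene of neutrophil elastase (chromosome 10, 79886247 to 79888215), had 10501, 9238 and 7737 CPM in bone marrow, while the resting libraries held 4, 1 and 1 counts of it. The related proteases Prtn3 and Ctsg had 1802 to 1977 and 1769 to 4304 CPM in bone marrow and at most 0.312 and 0.650 CPM in a resting library. The list took 6.81%, 4.98% and 3.24% of counts in bone marrow replicates 1 to 3 and 0.00277% to 0.00282% in resting libraries. The 3 GMP libraries stood at 6.31% to 7.17% and the 3 T2 libraries at 0.00173% to 0.00191%. The bone marrow eosinophil libraries were thus close to GMPs in these genes, with replicate 1 inside the GMP range and replicates 2 and 3 below it.

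Genes of the neutrophil's secondary and tertiary granules were mostly lower too, 11 of 17, and 2 were higher. Camp, the gene of the antimicrobial peptide cathelicidin, had 4505, 10626 and 28978 CPM in bone marrow and 2.31, 2.71 and 2.28 CPM in resting libraries. Ltf, the gene of the iron-binding protein lactoferrin, had 4091, 6503 and 5263 CPM against 33.4, 31.5 and 34.4, and its nearest libraries lay 118.9-fold apart. Ngp, the gene of neutrophilic granule protein, had 9544, 15612 and 16499 CPM against 527, 493 and 496 (-4.78, or -2.91 with the trend removed). Ngp was therefore well detected in resting cells, at a rank of 97.79 to 98.04, whereas Camp stood at 37.07 to 37.82. Chil1 (-8.42) and Cd177 (-7.94) were also lower. The list took 3.26% to 5.69% of counts in bone marrow and 0.575% to 0.604% in resting libraries; in GMPs it took 0.0938% to 0.135%.

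The 2 genes of this list that were higher by the rule (11.8%, against 6.59% of all counted genes) encode proteases of the cell membrane. By the log2 difference alone 4 genes of the list were higher, 3 of them by at least 2-fold. Mmp25, a membrane-anchored matrix metalloproteinase, had 34.6, 49.9 and 20.4 CPM in bone marrow and 1069, 1095 and 1076 CPM in resting libraries, with the nearest libraries 21.4-fold apart; its mean rank was 30.68 points higher, but the nearest libraries were under 25 points apart. It was at or near 0 in GMPs (0 to 0.028 CPM) and at 1504 to 1566 CPM in T2 libraries. Adam8, a metalloprotease of the leukocyte surface, had 127, 179 and 183 CPM in bone marrow and 1686, 1533 and 1592 in resting libraries, just inside the rule at 8.39-fold, and just outside it with the trend removed (2.96).

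Genes of the granule matrix, of lysosomes and of secretion showed no common direction. Of 21 counted, 3 were lower and 1 higher, and the median was -0.62. Srgn, the gene of the proteoglycan that packs granule contents, overlapped between the groups (1133 to 4603 CPM in bone marrow and 1540 to 1742 in resting libraries). The log2 difference of Srgn was -0.62, or 0.79 with the trend removed. Cd63, a granule membrane tetraspanin, had 880 to 2292 CPM against 321 to 338 and did not reach 8-fold between nearest libraries (-2.10). The lower genes were the lysosomal protease Ctsb (-3.55), Lyz2 (-5.12, and outside the rule at -3.30 with the trend removed) and Lyz1, which had 350 to 1041 CPM in bone marrow and 1 to 3 counts in each resting library. Lyz1 and Lyz2 encode closely related lysozymes. Lyst, a regulator of lysosome and granule size with a long transcript, was higher (3.29, or 0.96 with the trend removed).

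Surface genes passed the size rule about as often as genes at large. Of 98 counted, 7 were higher and 5 lower by the size rule, or 7.14% and 5.10%, close to the 6.59% and 6.66% of all counted genes. The median log2 difference was 0.82, and 53 genes lay wholly higher in resting cells and 25 wholly lower, where 40.3% and 39.0% of all counted genes did. Surface genes took 1.502% to 1.68% of counts in bone marrow and 4.66% to 4.72% in resting libraries. Scaled on housekeeping genes, 22 surface genes were higher. Without bone marrow replicate 3, the library rich in S100a8, 14 surface genes were higher, and without replicate 1, 9 were lower.

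Among the 16 counted receptors of eosinophils, 4 were higher by the size rule (25%, against 6.59% of all counted genes). None was lower and the median was 2.49. Csf2rb2 (chromosome 15, 78282507 to 78305721), the mouse-specific beta subunit of the IL-3 receptor, had 42.2, 55.8 and 64.8 CPM in bone marrow and 2032, 2029 and 1914 CPM in resting libraries, 29.5-fold apart between nearest libraries. Csf2rb, its neighbour and near-copy, the common beta subunit of the IL-3, IL-5 and GM-CSF receptors, had 222, 307 and 183 CPM against 3583, 3578 and 3469 (3.90, and 3.11 and outside the rule with the trend removed). Reads of this pair can be shared, so the split between them is uncertain, but both lay higher in all 3 resting libraries. By rank, with a gap of 25 percentile points asked between nearest libraries, neither passed, and their mean ranks were 22.38 points (Csf2rb2) and 4.56 points (Csf2rb) higher. The ligand-binding chains moved less. Il5ra, the IL-5-specific chain, had 42.0, 53.5 and 45.5 CPM in bone marrow and 360, 332 and 390 in resting libraries (2.94, outside the rule). Csf2ra, the GM-CSF-specific chain, and Il3ra, the IL-3-specific chain, differed by 0.19 and 0.80.

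The receptors most used to define eosinophils were detected in all bone marrow libraries too. Siglecf, the gene of Siglec-F, had 177, 154 and 177 CPM in bone marrow and 1236, 1159 and 1266 CPM in resting libraries (2.85), all resting libraries higher but not by 8-fold. With the trend removed it was at 3.43, past 8-fold. Ccr3 had 241, 336 and 1128 CPM in bone marrow and 3030, 2760 and 3075 in resting libraries (2.38); without bone marrow replicate 3 its log2 difference was 3.36 and passed the rule. Adgre1, the gene of F4/80, had 193, 219 and 411 CPM against 1949, 1820 and 1999 (2.81, and 3.22 and past the rule without replicate 3). In GMPs Siglecf stood at 23.0 to 25.4 CPM, so the bone marrow eosinophil libraries lay above the progenitors and below the resting cells, and T2 libraries were at 1471 to 1585.

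The other 2 receptors past the rule were Ptgdr2 and Il1rl1. Ptgdr2, the gene of the prostaglandin D2 receptor CRTH2, had 1.51, 0.445 and 0.192 CPM in bone marrow and 32.5, 28.9 and 28.6 in resting libraries (5.39). Il1rl1, the gene of the IL-33 receptor ST2, had 47.1, 47.0 and 81.7 CPM against 730, 718 and 770 (3.66, and outside the rule at 3.05 with the trend removed). The nearest libraries lay 18.9-fold apart for Ptgdr2 and 8.79-fold for Il1rl1, and Il1rl1 did not pass by rank (20.69 points).

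Among 18 counted adhesion molecules 2 were higher (11.1%, against 6.59% of all counted genes). Both are integrin alpha chains and are described singly. Itga4, the alpha chain of VLA-4, had 79.9, 78.3 and 48.8 CPM in bone marrow and 1639, 1528 and 1737 in resting libraries (4.57, or 2.78 with the trend removed; its transcript is 9767 bases long) and did not pass by rank (18.14 points). Itgax, the gene of CD11c, had 9.58, 4.34 and 7.18 CPM against 250, 238 and 267 (5.16). The more widely expressed Itgam, the gene of CD11b, was at 486 to 592 and 3135 to 3350 CPM (2.59, outside the rule).

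Of 17 counted chemoattractant receptors 1 was lower (5.88%), of 35 counted Fc, cytokine and pattern receptors 3 were lower (8.57%), and none was higher. These shares are near the 6.66% of all counted genes, and the 4 lower genes are described singly. Csf3r, the G-CSF receptor of neutrophils and their precursors, had 371, 324 and 180 CPM in bone marrow and 3.87, 4.26 and 3.19 in resting libraries (-6.27). Fpr1, a receptor for formylated bacterial peptides, had 17.4, 35.3 and 52.4 CPM against 0.874, 0.221 and 0.585 (-5.97, and outside the rule at -4.11 with the trend removed). Trem3 (-8.43) and Trem1 (-4.56), activating receptors of myeloid cells, were lower as well. Cxcr2, the neutrophil chemokine receptor, had 31.8, 75.7 and 79.3 CPM against 8.49, 8.91 and 8.26 and missed 8-fold (-2.86, but past the rule at -3.18 without bone marrow replicate 1). Cxcr4, the receptor for the marrow retention chemokine CXCL12, lay the other way, at 31.1, 31.2 and 51.0 CPM in bone marrow and 393, 348 and 372 in resting libraries (3.30, outside the rule, but past it at 4.61 with the trend removed and at 3.57 without bone marrow replicate 3).

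Of 12 counted activation and checkpoint molecules, Cd80, a costimulatory ligand, was higher in resting cells (3.25, 2.41 and 2.07 CPM in bone marrow and 65.4, 62.3 and 66.1 in resting libraries). Cd69, an early activation marker, was lower, at 19.3, 19.6 and 48.6 CPM in bone marrow and 0.999, 1.33 and 1.37 in resting libraries (-4.57). The 10 others did not pass the rule. The share was thus 8.33% in each direction, near the 6.59% and 6.66% of all counted genes.

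Most proliferation genes were lower in resting eosinophils. Of 86 counted, 53 were lower (61.6%) and 4 higher (4.65%), against 6.66% and 6.59% over all counted genes. By the size rule 22 of 27 mitosis genes and 26 of 30 replication genes were lower in resting cells. By log2 difference each gene of these lists was at least 2-fold lower, where 66.04% of all counted genes lay past 2-fold either way. Progenitor markers, described below, were lower with them. The mitosis list took 0.321% to 0.454% of counts in bone marrow and 0.0174% to 0.0176% in resting libraries. Of that list 26 of 27 genes reached 10 CPM in all bone marrow libraries and 4 did so in all resting libraries.

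Promoters of proliferation genes are shown for Cdk1, Top2a and Mcm6, which stand for entry into mitosis, chromosome disentangling and replication licensing. Each run is 250 bases before to 50 bases after the gene's start, on the gene's strand, from RefSeq on GRCm38.p6: chr10:69352863-69353162, chr11:99024140-99024439 and chr1:128359656-128359955, all on the minus strand. Capitals mark, on either strand, the CCAAT box, the letters TTTGAA or the variant TTCGAA of the cell cycle homology region, and the E2F-type letters TTTGGCGC and the variant TTTCGCGC.
Cdk1: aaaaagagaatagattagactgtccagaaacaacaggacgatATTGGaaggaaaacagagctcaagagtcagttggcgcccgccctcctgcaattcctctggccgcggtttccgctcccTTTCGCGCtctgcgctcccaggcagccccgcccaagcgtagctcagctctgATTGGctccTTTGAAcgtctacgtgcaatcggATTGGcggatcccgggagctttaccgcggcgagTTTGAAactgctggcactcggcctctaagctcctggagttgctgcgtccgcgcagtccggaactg
Top2a: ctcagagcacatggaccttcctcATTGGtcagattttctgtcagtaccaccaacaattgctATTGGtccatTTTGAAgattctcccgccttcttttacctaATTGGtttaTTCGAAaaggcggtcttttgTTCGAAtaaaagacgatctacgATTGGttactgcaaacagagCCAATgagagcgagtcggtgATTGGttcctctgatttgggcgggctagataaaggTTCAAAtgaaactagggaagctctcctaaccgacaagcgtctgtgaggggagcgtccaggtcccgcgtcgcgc
Mcm6: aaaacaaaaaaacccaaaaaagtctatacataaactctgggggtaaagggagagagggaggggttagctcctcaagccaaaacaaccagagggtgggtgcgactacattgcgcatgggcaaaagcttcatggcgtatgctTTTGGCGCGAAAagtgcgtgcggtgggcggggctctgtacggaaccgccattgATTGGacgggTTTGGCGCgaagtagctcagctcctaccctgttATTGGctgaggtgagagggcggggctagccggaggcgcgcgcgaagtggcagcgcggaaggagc

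The Cdk1 window holds 3 CCAAT boxes, 2 matches to TTTGAA and 1 to TTTCGCGC. The Top2a window holds 6 CCAAT boxes, 2 matches to TTTGAA and 2 to the variant TTCGAA. The Mcm6 window holds 2 CCAAT boxes, 2 matches to TTTGGCGC and 1 to TTTCGCGC, which overlaps another match. Promoters were matched for 23 of 27 mitosis genes (24 promoters) and 25 of 30 replication genes (30 promoters). At least 2 CCAAT stood in 58.3% of the mitosis promoters, 33.3% of the replication promoters, 22.2% of the 18 promoters of cell cycle inhibitors and 11.7% of all 32851 promoters of the same length. TTTGAA or its variant TTCGAA stood in 79.2%, 16.7%, 11.1% and 19.2% in the same order. TTTCGCGC stood in 4.17%, 23.3%, 5.56% and 0.323%, and TTTGGCGC in 0%, 16.7%, 0% and 0.514%. A match describes letters and is no evidence of binding.

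Cdk1, the kinase that drives entry into mitosis, had 153, 242 and 312 CPM in bone marrow and 2.12, 2.32 and 1.69 CPM in resting libraries, 65.9-fold apart between nearest libraries. Top2a, the topoisomerase that untangles chromosomes, had 329, 339 and 322 CPM against 10.99, 11.3 and 12.6 (-4.82). Ccnb1, the cyclin that activates Cdk1, had 190, 257 and 200 CPM against 2.31, 1.99 and 1.89 (-6.71). The mitotic kinases Aurkb (-6.75) and Ttk (-6.63) lay as low. Mki67, the gene of the Ki-67 antigen, was the exception in size: it had 135, 110 and 114 CPM against 45.4, 41.8 and 46.8 (-1.42, outside the rule). Its transcript is 10061 bases long, and with the trend removed it stood at -3.25 and passed the rule.

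The bone marrow eosinophils were near GMPs in these genes, and resting eosinophils near T2 eosinophils. Cdk1 was at 94.1 to 112 CPM in GMPs, below all 3 bone marrow eosinophil libraries, and at 1.12 to 1.41 CPM in T2 libraries. Top2a was at 365 to 447 CPM in GMPs and 8.21 to 9.31 in T2 libraries. Scaled over the libraries of different tables, these levels carry the confounding named above.

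Of 30 replication genes 26 were lower. Mcm2, a subunit of the replicative helicase, had 425, 389 and 223 CPM in bone marrow and 7.12, 6.25 and 6.18 in resting libraries (-5.73). Rrm2, the regulated subunit of ribonucleotide reductase, had 400, 358 and 404 CPM against 3.18, 2.10 and 3.58 (-7.03). Uhrf1, which maintains DNA methylation, differed by -7.01 and Ung, a uracil DNA glycosylase, by -7.60. Pcna, the sliding clamp that also serves repair, was among the 4 outside the rule, at 170, 244 and 367 CPM against 61.5, 62.8 and 65.4 (-2.04, or -0.41 with the trend removed).

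Upstream of these, 5 of 15 counted G1 genes were lower (33.3%, against 6.66% of all counted genes) and none higher. Myc, a driver of growth and division, had 399, 399 and 202 CPM in bone marrow and 2.50, 2.66 and 1.56 in resting libraries (-7.22); GMPs were at 566 to 747 CPM. The G1 cyclins Ccnd2 (-4.95) and Ccne2 (-5.38) were lower, and Ccnd3, the D cyclin of haematopoietic cells, stood at 618 to 968 against 110 to 119 CPM and did not pass the rule (-2.74).

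**Figure D1:**
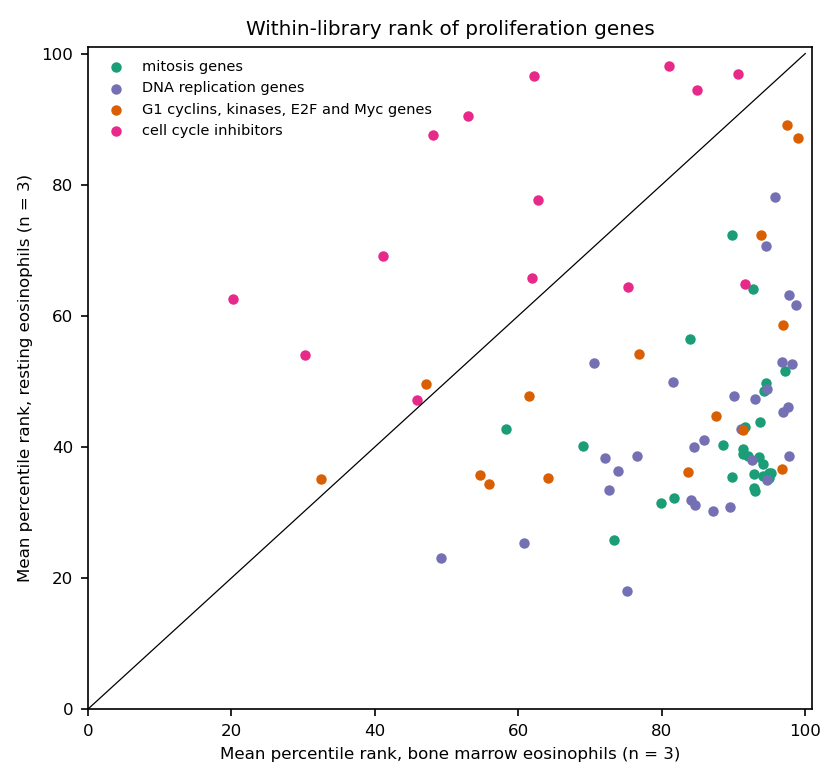
Mean percentile rank of each counted proliferation gene within its library (100 is the most abundant gene), bone marrow eosinophils on the x axis and resting eosinophils on the y axis, 3 libraries each; the line marks equal rank. Mitosis and replication genes lie below the line and most inhibitors above it; Cdkn1b goes from 58.68 to 68.48 up to 96.29 to 96.68.

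Cell cycle inhibitors lay the other way: 4 of 14 counted were higher (28.6%, against 6.59% of all counted genes). None was lower and the median was 2.16. Cdkn1b, the gene of the kinase inhibitor p27, had 21.2, 19.8 and 33.1 CPM in bone marrow and 367, 332 and 365 in resting libraries, 10.01-fold apart between nearest libraries (3.84, and outside the rule at 3.51 with the trend removed). Cdkn2b, the gene of the kinase inhibitor p15, had 0.287, 0.983 and 0 CPM against 26.4, 23.1 and 26.2 (5.74), and T2 libraries stood at 121.5 to 130.9 CPM. Gadd45a, a stress-induced growth arrest gene, and Rb1, the retinoblastoma protein that holds cells in G1, were just inside the rule at 8.36-fold and 8.17-fold; with the trend removed Rb1 was outside it (3.09). Cdkn1a, the gene of p21, had 7.02, 7.08 and 2.45 CPM against 39.0, 36.0 and 35.8 (2.74, outside the rule, and past it at 3.45 with the trend removed). Btg1, an antiproliferative gene, was at 47.9 to 107 against 530 to 584 CPM (2.97, outside the rule, and past it at 3.39 without bone marrow replicate 3). The inhibitor list took 0.0536% to 0.0686% of counts in bone marrow and 0.203% to 0.210% in resting cells.

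Markers of other cells were mostly lower in resting libraries. Of 129 counted, 49 were lower (38.0%) and 1 higher (0.775%) by the size rule, against 6.66% and 6.59% of all counted genes. The median log2 difference of the 129 was -2.90. By the log2 difference alone 92 were at least 2-fold lower and 23 at least 2-fold higher. Of all counted genes 66.04% lay past 2-fold in either direction. The markers of other cells took 2.66%, 3.98% and 10.6% of counts in bone marrow replicates 1 to 3 and 0.537% to 0.559% in resting libraries. Their part in the granule and proliferation differences was not tested.

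**Figure D2:**
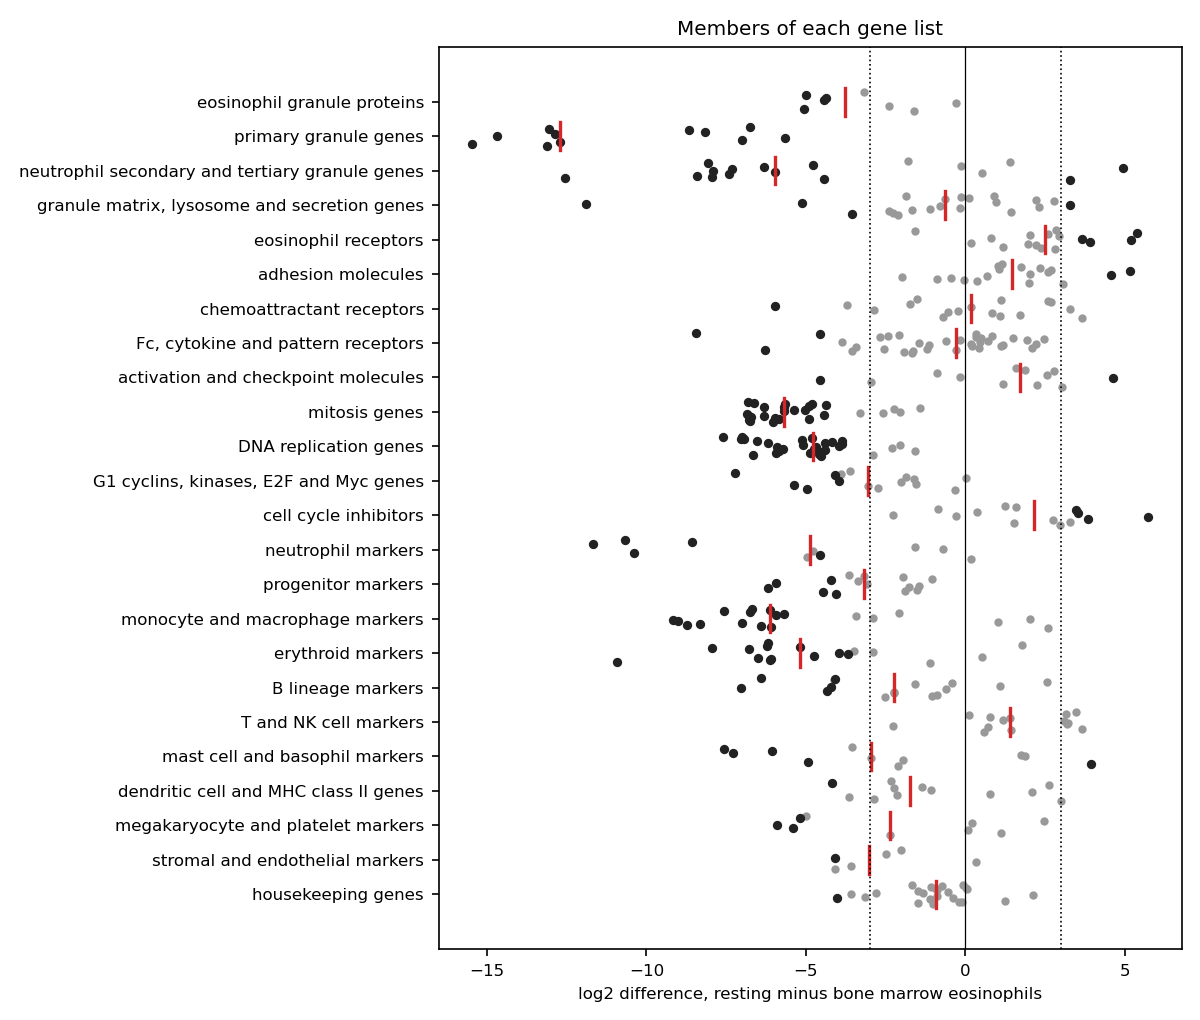
Log2 difference (resting minus bone marrow) of every counted gene in the 24 lists; black points pass the 8-fold rule between nearest libraries, grey points do not, red bars are list medians and dotted lines mark 8-fold. The primary granule list lies furthest left (median -12.72), and the eosinophil receptors lie to the right (median 2.49).

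Neutrophil markers were mostly lower in resting cells, as granule genes were. They took 1.15%, 2.92% and 9.50% of counts in bone marrow replicates 1 to 3 and 0.205% to 0.231% in resting libraries. By the size rule 5 of 10 counted were lower (50%, against 6.66% of all counted genes). By log2 difference 8 were at least 2-fold lower, and the highest value of the list was 0.18. The list summed to 1986 to 2335 CPM in resting libraries, far above S100a8 and S100a9, given next. S100a8, a subunit of calprotectin, had 4078, 12070 and 64554 CPM in bone marrow and 9.43, 6.42 and 8.91 in resting libraries, and S100a9, its partner, had 4093, 12260 and 38371 against 43.6, 44.1 and 55.7 (-8.58, and outside the rule at -5.14 with the trend removed). Replicate 3 was the highest bone marrow library for both, for Camp and also for Prg2, while it was the lowest for Mpo and Epx. Wfdc21 (-10.68), Lrg1 (-10.39) and Il1f9 (-4.56, and outside the rule at -3.07 with the trend removed) were lower as well. Stfa2l1, Stfa3 and BC100530 had no count in any resting library. They are not among the counted genes, since they did not reach 1 CPM in all 3 bone marrow libraries either. Of the 15 neutrophil markers 4 reached 10 CPM in all resting libraries.

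Progenitor markers were lower by at least 2-fold for all 15 counted genes, where 66.04% of all counted genes lay past 2-fold either way. By the size rule 5 of the 15 were lower (33.3%, against 6.66% of all counted genes). Kit, the receptor of stem cell factor, had 350, 238 and 185 CPM in bone marrow and 12.7, 14.3 and 15.1 in resting libraries (-4.20), and Cd34, a progenitor surface glycoprotein, had 134, 150 and 172 against 7.12, 6.75 and 6.89 (-4.45). GMPs were at 377 to 456 CPM for Kit. Hoxa9 (-5.95) and Egfl7 (-6.20) were the most different of the list, and Irf8 and Sox4 lay just outside the rule at 7.49-fold and 7.87-fold; Sox4 passed with the trend removed (-4.22). The list took 0.0787% to 0.153% of counts in bone marrow, 0.337% to 0.404% in GMPs and 0.0116% to 0.0120% in resting cells.

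Among monocyte and macrophage markers, 13 of 19 counted were lower by the size rule (68.4%, against 6.66% of all counted genes). C1qa, a complement subunit made by macrophages, had 283, 164 and 270 CPM in bone marrow and 0.562, 0.664 and 0.455 in resting libraries (-8.74), and stood at 0.290 to 0.533 CPM in GMPs. Cd163, the haemoglobin scavenger receptor, had 52.5 to 123 CPM in bone marrow and 2 or 3 counts in each resting library, and Cd5l, a macrophage secreted protein, had 80.2 to 152 CPM and at most 1 count. By log2 difference 3 genes of the list were at least 2-fold higher in resting cells, with a highest value of 2.59. Csf1r, the receptor of M-CSF, was 1 of these, with 204, 140 and 124 CPM in bone marrow and 655, 622 and 627 in resting libraries (2.03, outside the rule). The list took 0.457% to 0.599% of counts in bone marrow and 0.157% to 0.165% in resting libraries; Marco had no count in resting libraries.

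Erythroid markers were lower by the size rule for 12 of 17 counted genes (70.6%, against 6.66% of all counted genes). Car1, the erythroid carbonic anhydrase, had 138, 360 and 558 CPM in bone marrow and 3, 0 and 2 counts in the resting libraries, and Klf1, the erythroid transcription factor, had 41.1, 52.6 and 42.4 CPM and at most 1 count. Hba-a1, an alpha globin gene with a near-identical copy, had 262, 195 and 379 CPM against 21.8, 23.0 and 20.4 (-3.68, or -1.34 with the trend removed and outside the rule), and Alas2, the erythroid form of the enzyme that begins heme synthesis, was at 5.29 to 11.4 CPM against 3.32 to 3.68 (-1.11, outside the rule). Icam4, an erythroid adhesion molecule, had 12.7 to 33.0 CPM in bone marrow and 3 counts in each resting library. Rhag had no count in resting libraries. The list took 0.170% to 0.234% of counts in bone marrow and 0.0172% to 0.0199% in resting libraries.

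Of 11 counted mast cell and basophil markers 4 were lower in resting cells by the rule and 1 was higher. These are 36.4% and 9.09%, against 6.66% and 6.59% of all counted genes. By the log2 difference 3 in all were at least 2-fold higher, where 66.04% of all counted genes lay past 2-fold either way. Prss34, a basophil protease, had 900, 393 and 487 CPM in bone marrow and 3.18, 3.32 and 2.99 in resting libraries (-7.55), and Mcpt8, another, had 385, 245 and 532 against 2.25, 2.77 and 2.41 (-7.29). Ms4a2, the beta chain of the high-affinity IgE receptor, had 71.5, 91.5 and 172 CPM against 1.31, 1.55 and 2.15 (-6.07), and Fcer1a, its alpha chain, 10.4, 20.1 and 68.1 against 1.06, 1.16 and 1.04 (-4.92, and outside the rule at -2.56 with the trend removed). In GMPs Prss34 and Mcpt8 stood at 31.5 to 142 and 28.3 to 80.2 CPM, lower than in bone marrow eosinophils. Cma1, a mast cell chymase, was the 1 other-cell gene higher in resting cells by the size rule. Cma1 had no count in bone marrow and 22, 28 and 36 counts in the resting libraries. That is at least 9.52-fold higher between nearest libraries against a floor of 3 counts per library. The call was lost with a floor of 10 counts, with a 16-fold rule and by rank. The level of Cma1 in resting libraries was 1.37 to 2.34 CPM. Il4 (1.88) was outside the rule, and past it at 5.07 with the trend removed.

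B lineage markers were lower for 5 of 16 counted (31.2%, against 6.66% of all counted genes), among them Fcmr (-7.02). Cd79a, a subunit of the B cell receptor, was at 91.0 to 249 against 28.7 to 34.95 CPM and outside the rule (-2.23). Igll1, of the pre-B cell receptor, had no count in resting libraries and was at least 13.9-fold lower there by the same floor. Vpreb3, another B lineage marker, had 8.20 to 23.2 CPM in bone marrow and at most 1 count in a resting library. Dntt (-4.32) and Vpreb1 (-4.07) were lower too. By log2 difference 2 genes of the B lineage list were at least 2-fold higher in resting cells, with a highest value of 2.58. With the trend removed, Vpreb3 (-3.74), Igll1 (-3.32), Dntt (-3.35) and Vpreb1 (-1.77) were all outside the rule. The median of the B lineage list then went from -2.23 to -1.34. T and NK cell markers were low in both groups, at summed levels of 26.7 to 40.9 CPM in bone marrow and 69.3 to 77.3 CPM in resting libraries, and none of 14 passed the rule. Cd3e, a chain of the T cell receptor complex, lay just outside it at 7.89-fold, with 0.0957, 0.237 and 0 CPM in bone marrow and 1.87, 1.94 and 2.21 in resting libraries. Cd3e passed the rule with the trend removed (4.38), without bone marrow replicate 2 (4.06) and without resting replicate 1 (3.70). Gzma (3.22) and Thy1 (3.49) were also past the rule with the trend removed (5.58 and 4.42). The median of the T and NK cell list then went from 1.42 to 3.02. Of 12 dendritic cell and MHC class II genes 1 was lower (8.33%, near the 6.66% of all counted genes). It was Siglech (-4.18, and outside the rule at -3.29 with the trend removed). Batf3 (3.02) was past the rule as higher with the trend removed (4.22), and H2-Aa was at 96.3 to 155 against 55.7 to 66.2 CPM. Of 9 megakaryocyte and platelet genes 3 were lower (33.3%, against 6.66% of all counted genes), including the platelet glycoprotein genes Gp5 and Gp9. Pf4, a platelet chemokine, had 2.01, 2.98 and 24.4 CPM against 0.375, 0.166 and 0.390 and did not pass. By log2 difference 4 of the 9 were higher in resting cells, 2 of them by at least 2-fold, with a highest value of 2.46. Of 6 stromal genes counted, Cxcl12 alone was lower by the rule (-4.07), or 16.7% against 6.66% of all counted genes. The summed level of the megakaryocyte list ran from 204 to 381 CPM in bone marrow and from 533 to 552 CPM in resting libraries, and that of the stromal list from 73.2 to 162 and from 12.6 to 19.4 CPM.

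**Figure D3:**
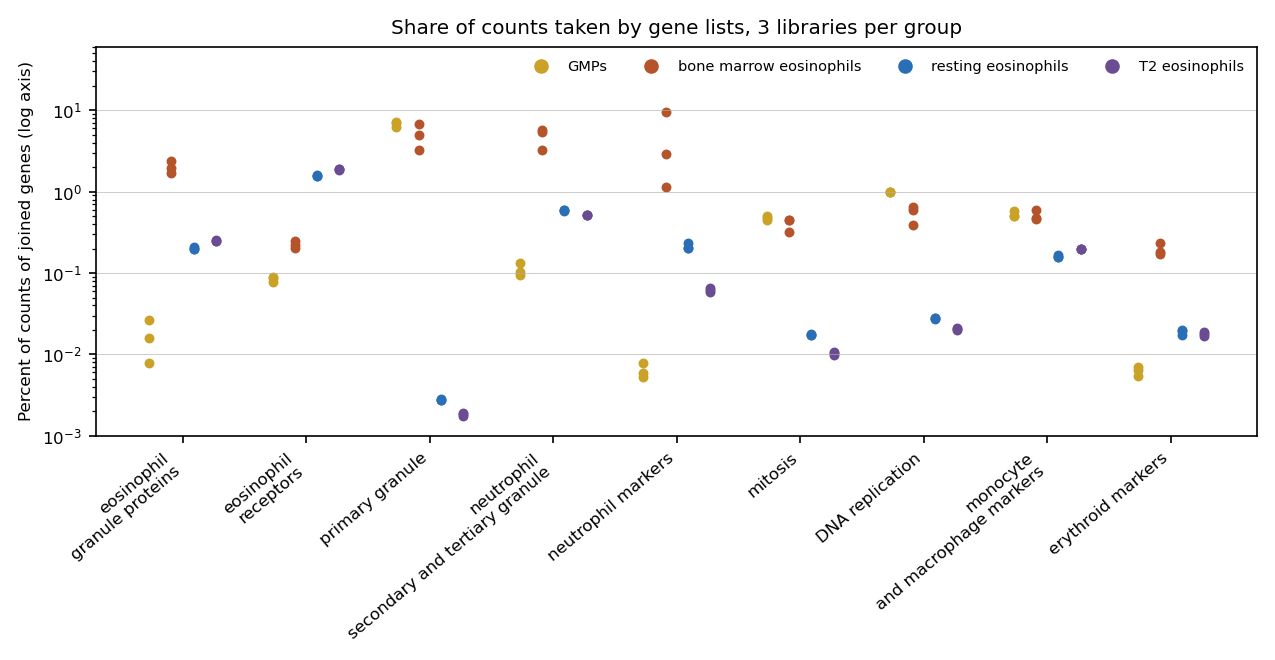
Percent of counts of the joined genes taken by 9 gene lists in each of 12 libraries, on a log axis, 3 libraries per group. Resting and T2 eosinophils lie together for primary granule, mitosis and replication genes, and bone marrow eosinophils lie closer to GMPs for these and above every other group for eosinophil granule proteins (1.70% to 2.38%).

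The eosinophil's own genes lay apart between bone marrow eosinophils and GMPs as well. The eosinophil granule list took 1.70% to 2.38% of counts in bone marrow eosinophils, 0.00775% to 0.0262% in GMPs, 0.197% to 0.206% in resting and 0.248% to 0.257% in T2 eosinophils. The eosinophil receptor list took 0.206% to 0.251%, 0.0766% to 0.0888%, 1.57% to 1.59% and 1.87% to 1.92% in the same order. The groups of different tables can be set side by side only as levels.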

How the data were processed

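Poly(A) RNA of 3 libraries of bone marrow eosinophils and 3 of resting eosinophils was analysed, with 3 GMP and 3 T2 libraries as values beside them. For bone marrow eosinophils and GMPs the authors deposited expected counts (estimated reads per gene, not normalized). For resting and T2 eosinophils the authors deposited counts (whole reads per gene, not normalized). The submitters' processing notes name fastp 0.18.0, Bowtie2 2.2.8, HISAT2, StringTie 1.3.1, RSEM and mm10, with no role for each tool; strand setting is not given in the sources used here.

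Tables were joined on gene symbols looked up by identifier (matched for 15902 of 15945 and 22219 of 22274 genes), which gave 15355 genes and 96.7% to 99.2% of each library's counts. The plan was to join on the deposited symbol columns. One of these holds many human-style symbols, that join gave 12400 genes and 74.7% to 79.2% of counts, and it was kept as an alternative; 12373 genes had the same identifiers in both. CPM with TMM factors (edgeR 4.0.16), within-library percentile ranks and the size rule of at least 8-fold between nearest libraries were computed. The floor was 3 counts per library, and floors cover counting error only. On simulated counts the rule was tested at known folds before use. Those counts had a fixed spread and no change between tables, so they check the computation only. Named genes are a fixed panel and, per list and direction, the 3 with the largest fold between nearest libraries. A few of them are not reported here. The members, lists and panel were chosen with earlier results of these data known. Alternatives were other scalings, folds, floors and filters, ranks, leaving out each library, edgeR's quasi-likelihood test, DESeq2 1.42.0 (Benjamini-Hochberg adjustment, adjusted p under 0.05 and at least 8-fold, expected counts rounded) and, chosen after seeing the data, removal of a quadratic trend on transcript length and GC content (GENCODE M21, GRCm38).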

Additional observations from a re-analysis of the deposited data

How the results depend on the processing

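No named gene that passed the rule changed direction under any alternative that gave it a value. Scaling on 25 housekeeping genes moved the median of all counted genes from -0.06 to 0.85 and the counts to 1486 higher and 417 lower over all genes, 22 higher for surface genes, 7 for proliferation genes and 7 for markers of other cells. A 4-fold rule gave 1587 higher and 1345 lower, with 22 surface, 7 proliferation and 7 other-cell genes higher. A 16-fold rule gave 253 and 400, with 1 granule, 1 proliferation and 0 other-cell genes higher and 3 surface genes lower. edgeR's quasi-likelihood test, which compares libraries of different tables rather than cell populations, gave 1209 higher and 1339 lower, with 10 surface genes lower and 6 other-cell genes higher; DESeq2 gave 1569 and 1423, with 12 surface, 7 proliferation and 10 other-cell genes higher and 9 surface genes lower. Deviations of same-numbered libraries from their group means hardly correlated (0.003, 0.04 and 0.048). With 3 libraries per group and resting libraries so alike, this cannot show whether replicates were paired. A replicate block in edgeR gave 1180 higher and 1179 lower, with 11 surface and 5 other-cell genes higher and 8 surface genes lower. A gap of 25 percentile points in rank gave 0 granule, 4 surface and 0 other-cell genes higher. Upper-quartile factors gave 1 granule and 2 proliferation genes higher, median-of-ratios factors and a floor of 10 counts gave 2 and 0 other-cell genes higher, the symbol-column join gave 2 proliferation genes higher, and removing the trend gave 1 granule and 6 other-cell genes higher. Leaving out each library gave 7 to 14 surface genes higher, 5 to 9 surface genes lower and 1 to 5 other-cell genes higher. The counts of lower granule, proliferation and other-cell genes stayed within 1.5 times under each alternative run. Of 98 named genes, 17 calls were lost and 5 gained without the trend, 11 and 8 under housekeeping scaling and 20 and 0 by rank. By rank the lost calls included Prg2, Epx, Ngp, Mmp25, Adam8, Ctsb, Lyst, Lyz2, Csf2rb, Csf2rb2, Il1rl1, Itga4, Cd69, S100a9, Fcer1a, Cma1, Siglech, Gp5 and Gp9. Under housekeeping scaling the lost calls included Prg2, Epx, Ctsb, Cd69, Kit, Hba-a1, Igll1, Fcer1a, Siglech and Cxcl12, and the gained calls were Siglecf, Il5ra, Adgre1, Itgam, Cxcr4, Cdkn1a, Btg1 and Cd3e. Where not given by the setting itself, the cause was not tested. Depth limits genes under 3 counts in a library, for which no size of difference is given beyond the floor.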
